A study of Mus musculus with 6 samples.

Results

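The S-phase and DNA replication genes described here are 43 genes out of the 53758 lines of the RNA-seq count table. They were listed by name and function, with earlier results of these data known, and all 43 were found. They cover origin licensing, activation of the replicative helicase, the polymerases and primase, the sliding clamp with its loader and strand maturation enzymes, nucleotide supply, copying of chromatin and DNA methylation, the E2F factors with cyclin E, and the replication checkpoint with repair. The RNA came from the Achilles tendon of 4-week-old mice, as total RNA.

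The study compared 3 genotypes, with 1 RNA-seq library each. Control mice carried Dicer f/f, that is, floxed Dicer alleles without Cre. ScxHt mice carried ScxCre/+ Knock In with Dicer +/+. Dicer cKO mice carried ScxCre/+ Knock In with Dicer f/f. The Cre is a knock-in at the Scx locus, so it is driven by the endogenous promoter of Scx, the transcription factor of the tendon lineage, and the allele that carries it no longer makes Scx. ScxHt and Dicer cKO therefore share the loss of an Scx allele, and Dicer cKO alone adds the deletion of Dicer in cells that have expressed Scx. The labels give no sex, and per the study's supplement each genotype was 1 mouse.

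With 1 library per genotype no spread between mice can be estimated, so no test and no p-value is given. The question each comparison addresses is whether the messages for copying DNA were held at another level between its genotypes. ScxHt/Control differs in the Cre allele, in the Scx allele lost with it, and in the floxed Dicer alleles, which ScxHt lacks. Dicer cKO/Control differs in the Cre and Scx alleles and in the loss of Dicer. Dicer cKO/ScxHt differs in the floxed Dicer alleles and their deletion. In the comparisons with ScxHt, the floxed alleles themselves cannot be told apart from the other differences. Values are deposited read counts, and a ratio is that of counts divided by DESeq2 size factors of the 2 libraries compared. Each ratio carries an exact 95% Clopper-Pearson interval for the error of counting alone. The interval treats every read as a separate molecule, which reads of amplified libraries are not, so it can be too narrow. A gene was analysed at a baseMean (mean normalized count of the 2 libraries) above 50, and was called higher at a ratio above 1.67 and lower below 0.60. These limits follow the study's methods. A gene low in 1 library can pass the minimum through the other, so its passing then rests on the library where it is high. The libraries held 16244232 (Control), 15769301 (ScxHt) and 14959399 (Dicer cKO) counted reads.

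A cell that enters S phase first loads the MCM helicase onto origins with the help of the origin recognition complex, Cdc6 and Cdt1. Cyclin E with its kinase, and the helicase cofactors, then open the origin, and primase and the polymerases copy the strands behind the clamp PCNA. Many of these genes are transcribed by E2F factors once the retinoblastoma protein is phosphorylated, so their messages are low in resting cells and rise together before S phase. Tendon fibroblasts divide during early postnatal growth and become largely quiescent as the tendon matures.

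The promoters of these genes are shown first, because the E2F recognition letters are the sequence feature the group is known for. RefSeq promoter windows, running from 250 bases before to 50 after an annotated start on GRCm38.p6, were found for 37 of the 43. They were searched on both strands for the letters TTTCCCGC, TTTGGCGC, TTTCGCGC and TTTGCCGC, whose matches can overlap each other. At least 1 match was found for 15 of 37 (40.5%), against 2.60% of the 27025 genes with a window. A further motif, CCAAT, which NF-Y is known to bind, was found for 22 of 37 (59.5%), against 41.1% of all genes. TTTGAA, the core of the cell cycle homology region of late cell cycle genes, was found for 5 of 37 (13.5%), against 20.2%. A match is a run of letters and no measured binding. The windows printed next hold the matches (in capitals) of the 3 E2F-matched genes with the highest Dicer cKO/Control ratios (Orc1, Clspn, Cdt1), of the 3 with the lowest (Pold1, Cdc6, E2f2), and of Mcm5 and Mcm6, in which matches overlap. All are written 5′ to 3′ on the gene's strand.
Orc1, chr4:108579411-108579450, + strand: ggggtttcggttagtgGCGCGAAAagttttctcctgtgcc
Clspn, chr4:126556985-126557024, + strand: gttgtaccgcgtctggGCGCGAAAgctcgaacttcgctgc
Cdt1, chr8:122568031-122568064, + strand: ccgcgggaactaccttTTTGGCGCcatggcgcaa
Pold1, chr7:44548766-44548792, - strand: ggcggcgtatcttgtgGCGGGAAAagc
Cdc6, chr11:98907997-98908036, + strand: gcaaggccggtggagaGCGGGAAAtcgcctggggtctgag
E2f2, chr4:136172297-136172323, + strand: atttggcggcatatagTTTGGCGCtaa
Mcm5, chr8:75109340-75109383, + strand: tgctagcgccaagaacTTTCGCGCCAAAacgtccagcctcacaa
Mcm6, chr1:128359729-128359831, - strand: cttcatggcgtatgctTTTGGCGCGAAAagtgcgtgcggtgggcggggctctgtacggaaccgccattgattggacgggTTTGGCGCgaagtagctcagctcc
The Orc1 and Clspn windows share the match GCGCGAAA, and those of Cdt1 and E2f2 share TTTGGCGC. Pold1 and Cdc6 share GCGGGAAA. In Mcm5, the 2 matches overlap on opposite strands, and in Mcm6 a pair of overlapping matches is followed downstream by another. Over the 15 genes there were 21 matched positions, from 219 bases before to 40 bases after the start, and 12 of them lay within 100 bases of it.

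**Figure D1:**
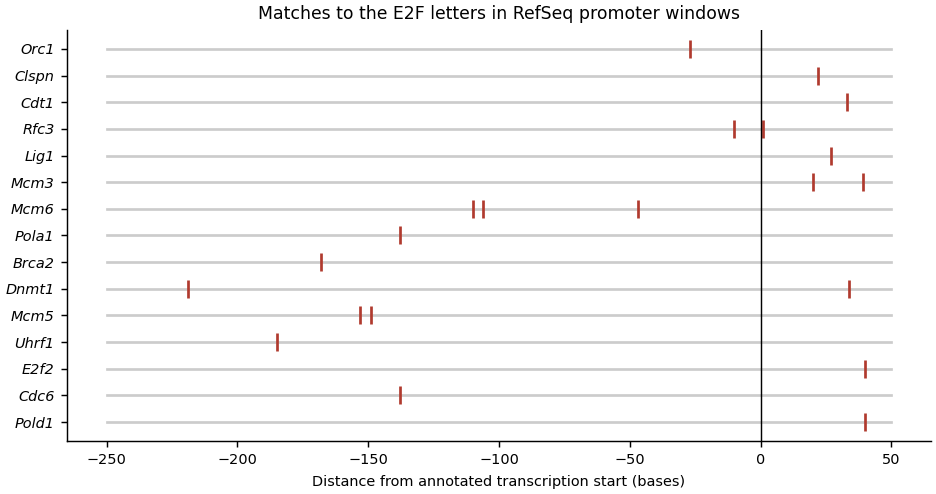
Positions of matches to the E2F letters (red ticks) along the promoter windows (grey lines) of the 15 matched genes, with distance from the annotated start in bases on the x axis and genes ordered from the highest (top) to the lowest Dicer cKO/Control ratio. Ticks of Mcm5 and Mcm6 sit close together where matches overlap, and the matches run from 219 bases before to 40 bases after the start.

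The genotype labels were checked on Dicer1 and Scx. Dicer1 had 1919 (Control), 2025 (ScxHt) and 1621 (Dicer cKO) reads, and Dicer cKO stood at 0.877 (0.820 to 0.937) of Control. The count covers the whole gene, so it does not resolve the floxed part. Scx had 1055, 686 and 371 reads in the same order. It was lower in both Cre-carrying libraries, at 0.623 (0.565 to 0.686) of Control in ScxHt and 0.365 (0.323 to 0.411) in Dicer cKO.

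The 43 genes together held 6029 reads in Control, 8792 in ScxHt and 7895 in Dicer cKO, that is, 0.0371%, 0.0558% and 0.0528% of each library. Control had the smallest share. The summed ratio was 1.36 (1.31 to 1.41) in Dicer cKO and 1.40 (1.35 to 1.44) in ScxHt over Control, and Dicer cKO/ScxHt was 0.990 (0.960 to 1.02). The first 2 comparisons share the Control library, so a low value in that library raises both ratios of a gene. In whole-tendon RNA, fewer cells in S phase and less RNA per cell cannot be told apart.

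Control held the lowest normalized count of the 3 libraries for 38 of the 43 genes, ScxHt for 1 (Orc6) and Dicer cKO for 4 (Pold1, Prim1, Pcna, Dut). Among genes with a mean normalized count above 50, Control was lowest for 32 of 37 replication genes. Over all 13439 genes at that level, Control was lowest for 27.1%, ScxHt for 33.7% and Dicer cKO for 39.3%. The highest count was divided between ScxHt, with 19 of the 43, and Dicer cKO, with 22. The remaining 2, Orc6 and Dut, were highest in Control. Among the 37 with a mean above 50, ScxHt was highest for 19, Dicer cKO for 16 and Control for 2. Over all 13439 genes, ScxHt was highest for 4954, Dicer cKO for 4492 and Control for 3993.

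**Figure D2:**
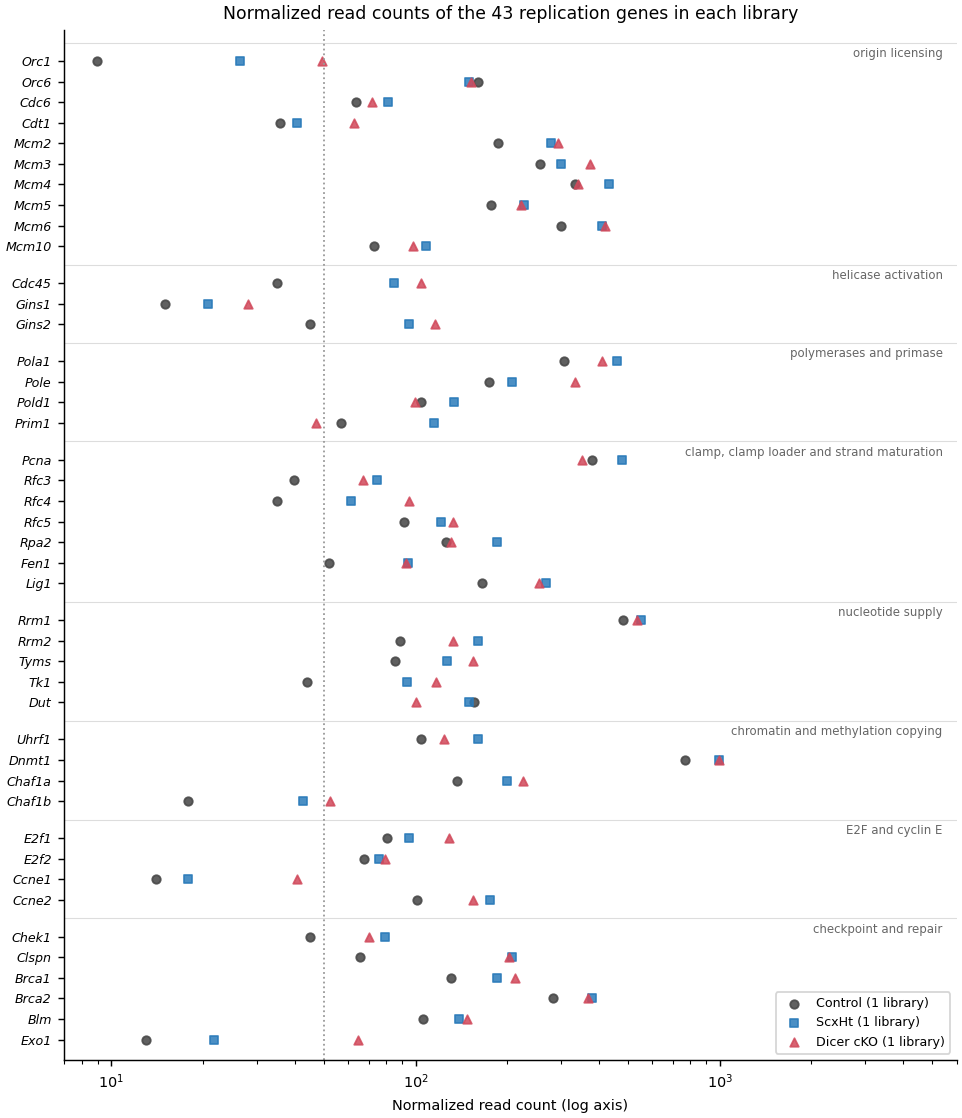
Normalized read count (log axis) of each of the 43 replication genes in the Control (circle), ScxHt (square) and Dicer cKO (triangle) library, 1 library each, in blocks by role, with a dotted line at 50. The circle lies furthest to the left for 38 of the 43 genes, and squares and triangles mostly lie close to each other.

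For Dicer cKO/Control, 37 of the 43 genes passed the minimum count, and Orc1, Cdt1, Gins1, Chaf1b, Ccne1 and Exo1 did not. Of the 37, 8 were called higher (Cdc45, Gins2, Pole, Rfc4, Fen1, Tyms, Tk1, Clspn) and none lower. Of the 8, Cdc45, Gins2, Rfc4 and Tk1 had Control counts below 50 and passed the minimum through Dicer cKO. Over all 13411 genes analysed, 3.87% were called higher and 4.18% lower. The whole interval lay above 1 for 25 of the 37 and below 1 for 1 (Dut), beside 21.6% and 28.5% of all genes. The median log2 ratio of the 37 was 0.52, beside -0.03 over all genes.

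For ScxHt/Control, 36 passed, since Rfc4 was also too low. Of the 36, 10 were called higher (Cdc45, Gins2, Prim1, Rfc3, Fen1, Rrm2, Tk1, Ccne2, Chek1, Clspn) and none lower, beside 3.04% and 4.71% of 13469 genes. Of the 10, Cdc45, Gins2, Rfc3, Tk1 and Chek1 had Control counts below 50 and passed the minimum through ScxHt. The interval lay above 1 for 30 of the 36 and below 1 for none, beside 26.4% and 23.8%. The median log2 ratio was 0.54, beside 0.02 over all genes.

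Dicer cKO/ScxHt is the comparison that does not use the Control library, and it gave 38 genes above the minimum. None was called higher and 1 lower (Prim1), beside 7.67% and 5.69% of 13462 genes. Prim1 had a Dicer cKO count below 50 and passed the minimum through ScxHt. The interval lay above 1 for 5 of the 38 and below 1 for 7, beside 24.9% and 30.6%. The median log2 ratio was -0.03, which is also the median over all genes. The genes above the minimum, taken as a group, thus stood at about the same level in the Cre-carrying libraries, with exceptions given below by role. The 5 genes below it (Orc1, Gins1, Chaf1b, Ccne1, Exo1) had ratios from 1.22 (Chaf1b) to 2.97 (Exo1). The intervals of Gins1 and Chaf1b held 1.

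**Figure D3:**
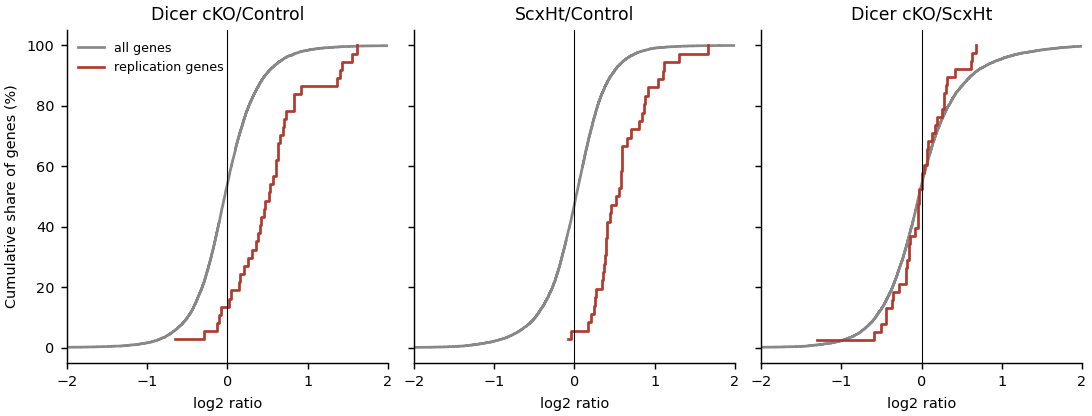
Cumulative share of genes (y axis, %) by log2 ratio (x axis, shown from -2 to 2) for the replication genes above the minimum count (red) and for all genes above it (grey), in each of the 3 comparisons. The red line lies to the right of the grey one in both comparisons with Control, with medians of 0.52 and 0.54, and crosses it in Dicer cKO/ScxHt, with a median of -0.03.

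Counting every one of the 43 genes, whatever its level, the interval lay above 1 for 30 in Dicer cKO/Control and for 33 in ScxHt/Control. Over all genes above the minimum count the shares were 21.6% and 26.4%, and the share over genes of every level was not computed. In Dicer cKO/Control, 12 intervals held 1 (Orc6, Cdc6, Mcm4, Mcm10, Gins1, Pold1, Prim1, Pcna, Rpa2, Rrm1, Uhrf1, E2f2) and that of Dut lay below it. In ScxHt/Control, 10 intervals held 1 (Orc6, Cdc6, Cdt1, Gins1, Pole, Dut, E2f1, E2f2, Ccne1, Exo1). The size of the ratio went with the level of the gene. The 21 genes with the lower mean counts (21.3 to 122) had a median log2 ratio of 0.83 for Dicer cKO/Control and 0.76 for ScxHt/Control, and the 22 with the higher mean counts (127 to 918) had 0.44 and 0.45. For Dicer cKO/ScxHt the medians were 0.28 and -0.04.

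**Figure D4:**
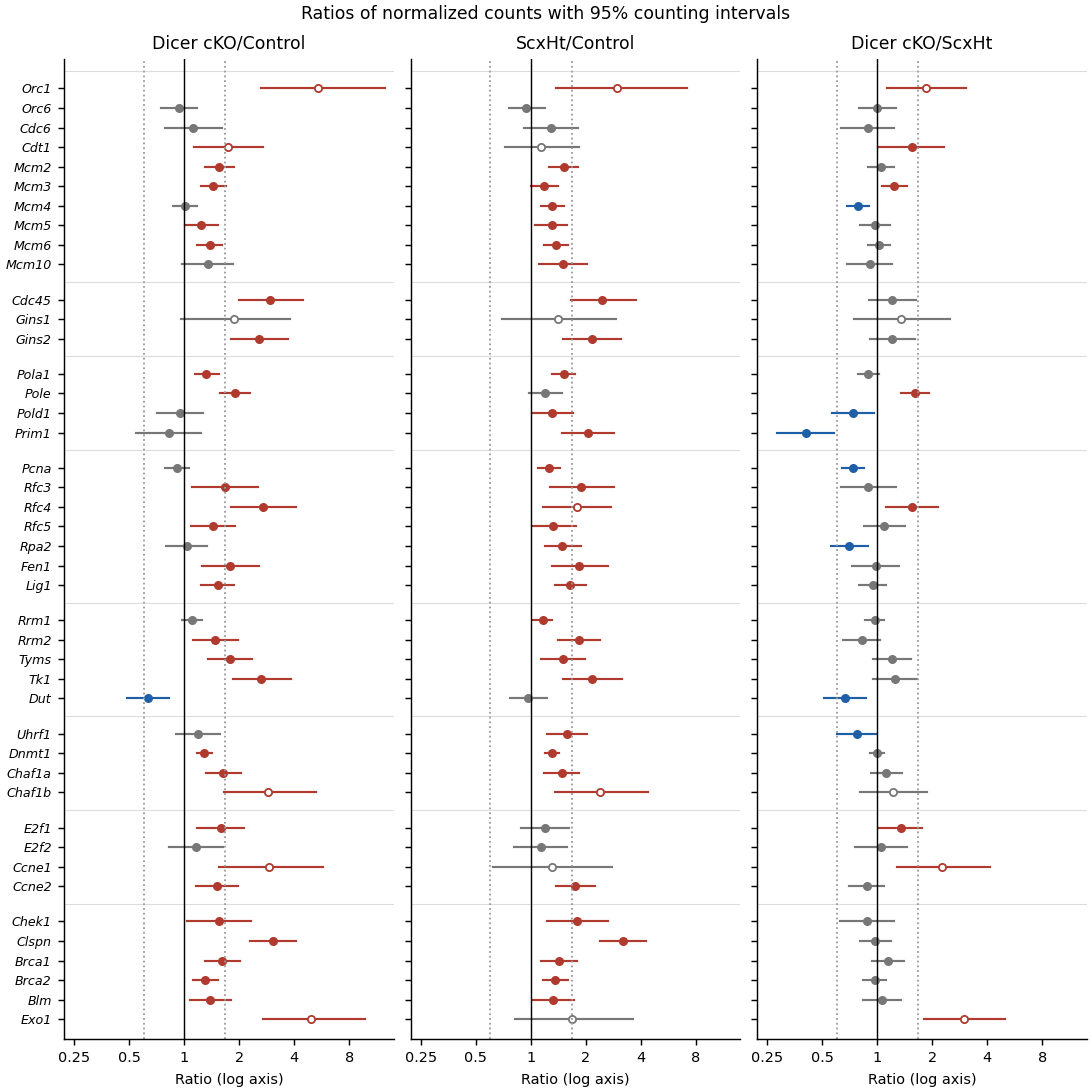
Ratio of normalized counts (log axis) of each of the 43 genes with its 95% counting interval, for the 3 comparisons, with solid lines at 1 and dotted lines at 0.60 and 1.67. Open circles mark genes below the minimum count, red an interval above 1, blue below 1, grey across 1. Red bars number 30 in Dicer cKO/Control, 33 in ScxHt/Control and 8 in Dicer cKO/ScxHt, and blue bars number 1 (Dut), none and 7. Over all genes above the minimum count, in the same order, 21.6%, 26.4% and 24.9% had an interval above 1. An interval below 1 was held by 28.5%, 23.8% and 30.6%.

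Of the 10 origin licensing genes, Orc1 differed most. Orc1, the subunit of the origin recognition complex that is made anew in each cycle (chr4:108579423-108614833), had 9 reads in Control, 28 in ScxHt and 47 in Dicer cKO. Every pair of libraries differed beyond counting error, with ratios of 5.42 (2.63 to 12.6), 2.98 (1.37 to 7.18) and 1.85 (1.13 to 3.07) for Dicer cKO over Control, ScxHt over Control and Dicer cKO over ScxHt. Its level was below the minimum in each comparison. Orc6, a subunit that stays in the cell throughout the cycle, had 161, 159 and 145 reads in the order Control, ScxHt, Dicer cKO, which holds from here on. Its ratios to Control were 0.935 (0.742 to 1.18) and 0.946 (0.755 to 1.19), so the 2 subunits of the complex differed in their pattern.

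The loading factors had smaller ratios than Orc1. Cdc6, the ATPase that recruits the helicase, had 64, 86 and 69 reads, and neither ratio to Control was beyond counting error. Cdt1, which brings the MCM ring to the origin, had 36, 43 and 60 reads. Cdt1 ratios stood at 1.73 (1.13 to 2.69) in Dicer cKO and 1.14 (0.718 to 1.83) in ScxHt over Control. Mcm10, which helps to start the fork, had 73, 114 and 94 reads.

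The MCM subunits, which form the ring-shaped helicase, differed less in relative terms and were among the more abundant genes. Mcm2 had 188, 296 and 281 reads, which gave ratios of 1.55 (1.29 to 1.88) in Dicer cKO and 1.51 (1.25 to 1.82) in ScxHt over Control. Mcm6 had 302, 433 and 401 reads, with ratios of 1.38 (1.18 to 1.61) and 1.37 (1.18 to 1.60). Mcm5, with 178, 241 and 212 reads, showed a smaller difference, at 1.24 (1.01 to 1.52) and 1.30 (1.06 to 1.58). In these 3 subunits the Cre-carrying libraries lay together above Control. Mcm3 and Mcm4 did not share that order. Mcm3 had 258, 319 and 359 reads and was higher in Dicer cKO than in ScxHt, at 1.24 (1.06 to 1.45). Mcm4 had 334, 458 and 326 reads and was lower in Dicer cKO than in ScxHt, at 0.784 (0.678 to 0.906), and stood at 1.01 (0.867 to 1.18) of Control. Of the 8 licensing genes above the minimum, none passed 1.67 in either comparison with Control, and their medians were 0.36 and 0.38 on the log2 scale.

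The helicase cofactors had the highest medians of any role, 1.46 for Dicer cKO/Control and 1.2 for ScxHt/Control on the log2 scale, from the 2 of 3 genes above the minimum. Both had Control counts below 50 and passed the minimum through the Cre-carrying libraries. Cdc45, which joins the MCM ring when an origin fires (chr16:18780447-18811987), had 35, 90 and 99 reads. The ratios were 2.94 (1.98 to 4.45) in Dicer cKO and 2.46 (1.65 to 3.75) in ScxHt over Control. Gins2, a subunit of the GINS complex of the active helicase (chr8:120578633-120589304), had 45, 101 and 111 reads, at 2.56 (1.8 to 3.71) and 2.15 (1.5 to 3.13). For both genes Control lay well below the other libraries, which did not differ from each other beyond counting error. Gins1, of the same complex, had only 15, 22 and 27 reads, and all its intervals held 1.

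The polymerase genes did not share an order of the libraries. Pola1, the catalytic subunit of the polymerase that extends primers, had 308, 485 and 393 reads, with ratios to Control of 1.32 (1.14 to 1.54) in Dicer cKO and 1.51 (1.30 to 1.75) in ScxHt. Pole, the catalytic subunit of the leading strand polymerase, had 175, 220 and 319 reads. It stood highest in Dicer cKO, at 1.89 (1.57 to 2.29) over Control and 1.60 (1.34 to 1.91) over ScxHt. Pold1, that of the lagging strand polymerase, had 104, 142 and 95 reads and stood highest in ScxHt, with a Dicer cKO/ScxHt ratio of 0.737 (0.562 to 0.963).

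Prim1, the catalytic subunit of primase (chr10:128015168-128030037), had the widest gap between the Cre-carrying libraries among genes above the minimum. It had 57 reads in Control, 122 in ScxHt and 45 in Dicer cKO. ScxHt was higher than Control, at 2.05 (1.49 to 2.86), whereas Dicer cKO was not beyond counting error of Control, at 0.820 (0.542 to 1.23). The Dicer cKO/ScxHt ratio was 0.406 (0.282 to 0.576), and Prim1 was the 1 gene of the 38 above the minimum that was past a threshold in that comparison. Below the minimum, Orc1, Ccne1 and Exo1 were past 1.67.

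Pcna, the sliding clamp, was the most abundant of the 43 genes per length in each library, with RPKM values of 9.76, 13.3 and 9.36. Its counts were 381, 503 and 336, so ScxHt was higher than Control, at 1.26 (1.10 to 1.45), and Dicer cKO lower than ScxHt, at 0.736 (0.639 to 0.847). The Pcna pseudogene Pcna-ps2 held 109, 196 and 133 reads, so reads of the near-identical copies may be divided between them. Rpa2, a subunit of the complex that coats single-stranded DNA, was also highest in ScxHt, with 126, 196 and 125 reads. Its Dicer cKO/ScxHt ratio was 0.703 (0.557 to 0.884). For Pcna and Rpa2, Dicer cKO did not differ from Control beyond counting error.

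The clamp loader subunits among the members each had their lowest normalized count in Control. Rfc4 (chr16:23113943-23127737) had 35, 65 and 91 reads, with ratios over Control of 2.70 (1.81 to 4.11) in Dicer cKO and 1.78 (1.16 to 2.76) in ScxHt, and a Dicer cKO/ScxHt ratio of 1.54 (1.11 to 2.15). Rfc3 had 40, 79 and 64 reads and Rfc5 had 92, 128 and 127, and for both genes the Cre-carrying libraries did not differ beyond counting error. At 1.66 (1.10 to 2.53), Rfc3 lay just under the threshold for Dicer cKO/Control. Fen1, the nuclease that trims Okazaki fragments, had 52, 100 and 89 reads, at 1.78 (1.25 to 2.55) and 1.84 (1.30 to 2.63) over Control. Lig1, the ligase that joins them, had 166, 284 and 243 reads, at 1.52 (1.24 to 1.86) and 1.64 (1.35 to 2.0).

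Among nucleotide supply genes the salvage and synthesis enzymes for thymidylate were higher outside Control. Tk1, the thymidine kinase of dividing cells (chr11:117815526-117826092), had 44, 99 and 112 reads, with ratios of 2.64 (1.85 to 3.84) and 2.16 (1.5 to 3.15) for Dicer cKO and ScxHt over Control. Tyms, thymidylate synthase, had 86, 135 and 147 reads, at 1.77 (1.35 to 2.34) and 1.5 (1.14 to 1.99). The subunits of ribonucleotide reductase differed in size of ratio. Rrm2, the subunit made in S phase, had 89, 170 and 127 reads, at 1.48 (1.12 to 1.96) and 1.83 (1.41 to 2.39). Rrm1, the long-lived large subunit, had 482, 584 and 513 reads, at 1.10 (0.974 to 1.25) and 1.16 (1.03 to 1.31).

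Dut, the dUTPase that keeps uracil out of DNA (chr2:125247190-125258608), was the only gene of the 43 whose Dicer cKO/Control interval lay below 1. Ratios of Orc6, Pold1, Prim1 and Pcna were also below 1, with intervals that held 1. Dut had 157 reads in Control, 159 in ScxHt and 96 in Dicer cKO. Dicer cKO was below both other libraries, at 0.635 (0.487 to 0.823) of Control and 0.665 (0.511 to 0.863) of ScxHt, without passing the threshold of 0.60, and ScxHt/Control was 0.97 (0.773 to 1.22).

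None of the genes that copy chromatin and methylation onto new DNA was called higher or lower in any comparison, and 3 of the 4 were above the minimum. Dnmt1, the maintenance DNA methyltransferase, had the most reads of the group, with 770, 1049 and 952, and ratios of 1.28 (1.17 to 1.41) and 1.30 (1.19 to 1.43) for Dicer cKO and ScxHt over Control. Uhrf1, which guides Dnmt1 to new DNA, had 104, 170 and 119 reads. It differed from Control in ScxHt, at 1.57 (1.22 to 2.02), and was lower in Dicer cKO than in ScxHt, at 0.771 (0.605 to 0.981). The chromatin assembly factor subunits Chaf1a (137, 211 and 215 reads) and Chaf1b (18, 45 and 50 reads) had their lowest normalized counts in Control. Their Dicer cKO/Control ratios were 1.63 (1.31 to 2.03) and 2.88 (1.65 to 5.25), the latter on counts below the minimum.

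The upstream factors were mixed. E2f1, an activator of this gene group, had 81, 101 and 123 reads, at 1.58 (1.18 to 2.11) in Dicer cKO and 1.19 (0.883 to 1.62) in ScxHt over Control. E2f2 had 68, 80 and 76 reads, and none of its ratios was beyond counting error. The E cyclins, which activate the kinase Cdk2 at the entry to S phase, had their lowest normalized counts in Control. Ccne1 had 14, 19 and 39 reads and was higher in Dicer cKO than in ScxHt, at 2.26 (1.28 to 4.14), on counts below the minimum. Ccne2 had 101, 185 and 147 reads, with ScxHt/Control at 1.75 (1.37 to 2.26) and Dicer cKO/ScxHt at 0.876 (0.700 to 1.09).

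Of the 6 checkpoint and repair genes, 5 were above the minimum. Of these 5, 1 was called higher for Dicer cKO/Control (Clspn) and 2 for ScxHt/Control (Clspn, Chek1). Clspn, or Claspin, which passes the signal of a stalled fork to the kinase Chek1 (chr4:126556935-126593903), had 66 reads in Control, 219 in ScxHt and 194 in Dicer cKO. Its ratios over Control of 3.05 (2.30 to 4.10) in Dicer cKO and 3.18 (2.40 to 4.25) in ScxHt were the largest of the genes above the minimum. Dicer cKO and ScxHt did not differ beyond counting error, at 0.976 (0.80 to 1.19). Chek1 itself had 45, 84 and 67 reads, at 1.55 (1.04 to 2.31) and 1.79 (1.23 to 2.63) over Control.

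Brca1 (131, 196 and 203 reads), Brca2 (283, 402 and 354) and the helicase Blm (106, 147 and 141), all of homologous recombination, lay between 1.30 and 1.61 for Dicer cKO/Control and between 1.33 and 1.43 for ScxHt/Control. Exo1, a nuclease of end resection and mismatch repair (chr1:175880581-175913489), was high in Dicer cKO alone, with 13, 23 and 62 reads. Dicer cKO stood at 4.95 (2.69 to 9.81) times Control and 2.97 (1.81 to 5.02) times ScxHt, whereas ScxHt/Control was 1.69 (0.823 to 3.64). Exo1 had the lowest level per length of the group in each library, with RPKM values of 0.095, 0.173 and 0.492, and stayed below the minimum count.

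Genes with and without the E2F letters were set side by side. The 15 with a match had a median log2 ratio of 0.41 for Dicer cKO/Control and 0.44 for ScxHt/Control. The 22 with a window but no match had 0.63 and 0.58. For Dicer cKO/ScxHt the medians were -0.04 and 0.08. Both sets included genes near 1 and genes well above it, such as Pold1 and Orc1 with a match, and Rpa2 and Cdc45 without.

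In GENCODE vM21, 13 of the 43 genes share exon bases with a gene on the opposite strand, and the strand setting of the counting is not given in the sources used here, so reads of such partners cannot be told apart. The shared part was 78.8% of the exon bases of Fen1 (with Gm10143), 67.3% of Gins2 (with Gse1) and 52.5% of Chaf1a (with Ubxn6). It was at most 17.4% for the others. Gse1 had 571, 339 and 624 reads, lowest in ScxHt and highest in Dicer cKO, beside 45, 101 and 111 for Gins2. The part of Gse1 reads in the Gins2 counts was not tested. Rfc4 shared 12.7% of its exon bases with Eif4a2, which had 3713, 3933 and 4082 reads. Without the 13 genes, 2 were called higher in Dicer cKO/Control (Tyms, Clspn) in place of 8, and 5 in ScxHt/Control in place of 10. The medians without them were 0.41 and 0.46.

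Other genes of the pathway were listed by function to set the 43 beside their neighbours, likewise with earlier results of these data known. The part of that choice in the differences between list medians was not tested. Of 36 further fork and origin genes, 30 passed the minimum for Dicer cKO/Control, with 3 called higher, none lower and a median log2 ratio of 0.25. The ScxHt/Control median was 0.28, with none called either way among 29. Mms22l, a fork repair factor, had 79, 132 and 147 reads and the highest Dicer cKO/Control ratio, at 1.93 (1.46 to 2.57). Dbf4, the activator of the Cdc7 kinase that fires origins, had 92, 155 and 167 reads and the highest ScxHt/Control ratio, at 1.61 (1.24 to 2.11). Mcm9, a helicase of recombination and not of the replicative ring, had 256, 237 and 160 reads and the lowest Dicer cKO/Control ratio, at 0.649 (0.529 to 0.794). Pold4 was lowest for ScxHt/Control, at 0.777 (0.536 to 1.12).

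The remaining lists lay closer to no difference. Medians for Dicer cKO/Control and ScxHt/Control were 0.22 and 0.09 for 12 other nucleotide supply genes, 0.05 and 0.06 for 21 other E2F, pocket protein and G1/S regulators, 0.15 and 0.18 for 7 CDK inhibitors, 0.21 and 0.15 for 8 other chromatin assembly genes, and 0.20 and 0.03 for 24 other checkpoint and repair genes. In the nucleotide list none was called, and its extremes were Umps, at 1.5 (1.18 to 1.92), and Cad, at 0.655 (0.575 to 0.744), for Dicer cKO/Control. Gart, at 1.27 (1.12 to 1.45), and Rrm2b, at 0.751 (0.631 to 0.893), were the extremes for ScxHt/Control. Cad, which starts pyrimidine synthesis, had 620, 638 and 391 reads.

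Of the G1/S regulators, E2f7, a repressor that is itself an E2F target, had 75, 133 and 147 reads and was highest for Dicer cKO/Control, at 2.03 (1.53 to 2.72). Skp2, which marks the inhibitor p27 for degradation, had 22, 88 and 53 reads and was highest for ScxHt/Control, at 3.83 (2.38 to 6.42). Skp2 passed the minimum for that comparison through its ScxHt count. Ccnd3, cyclin D3, had 803, 629 and 517 reads and was lowest in both, at 0.668 (0.597 to 0.747) and 0.750 (0.675 to 0.834). Cdkn2c was the highest CDK inhibitor in both, at 1.39 (1.07 to 1.81) and 1.52 (1.18 to 1.96). Cdkn1a, which encodes p21, was lowest for Dicer cKO/Control, at 0.712 (0.577 to 0.877), and Cdkn1c for ScxHt/Control, at 0.878 (0.765 to 1.01).

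In the chromatin assembly list, Hells, a helicase of DNA methylation, was called higher in both, with 155, 277 and 259 reads and ratios of 1.73 (1.42 to 2.13) and 1.71 (1.40 to 2.10). The lowest were Asf1a, at 0.961 (0.784 to 1.18), and Rbbp4, at 1.01 (0.936 to 1.09). In the checkpoint and repair list, Fanca, at 2.11 (1.39 to 3.25), and Fancd2, at 0.663 (0.505 to 0.868), were the extremes for Dicer cKO/Control. Fanca had 35 reads in Control and passed the minimum through Dicer cKO. Atrip was the lowest for ScxHt/Control, at 0.755 (0.573 to 0.994).

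Mitosis genes, which follow S phase, had larger ratios than the replication genes. Of the 20 listed, 13 passed the minimum for Dicer cKO/Control, with 10 called higher, none lower and a median log2 ratio of 0.89. Over all genes analysed, 3.87% were called higher and 4.18% lower. Of the 10, Kif20a and Cdc20 had Control counts below 50 and passed the minimum through Dicer cKO. For ScxHt/Control 11 of 17 were called higher, none lower, with a median of 0.84, beside 3.04% and 4.71% of all genes. Of the 11, Cdk1, Ccnb1, Bub1, Plk1 and Kif20a had Control counts below 50 and passed through ScxHt. For Dicer cKO/ScxHt the median was 0.07. Mki67, the proliferation marker, had 1520, 2776 and 2756 reads, at 1.88 (1.77 to 2.01) and 1.75 (1.64 to 1.86) over Control. Top2a, which untangles chromosomes, had 473, 882 and 926 reads, at 2.03 (1.82 to 2.28) and 1.79 (1.60 to 2.0). The extremes were Kif20a, at 2.85 (1.97 to 4.21), and Tpx2, at 1.24 (1.01 to 1.53), for Dicer cKO/Control. For ScxHt/Control they were Plk1, at 5.51 (3.22 to 10), and Ncapg, at 1.2 (0.923 to 1.56).

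**Figure D5:**
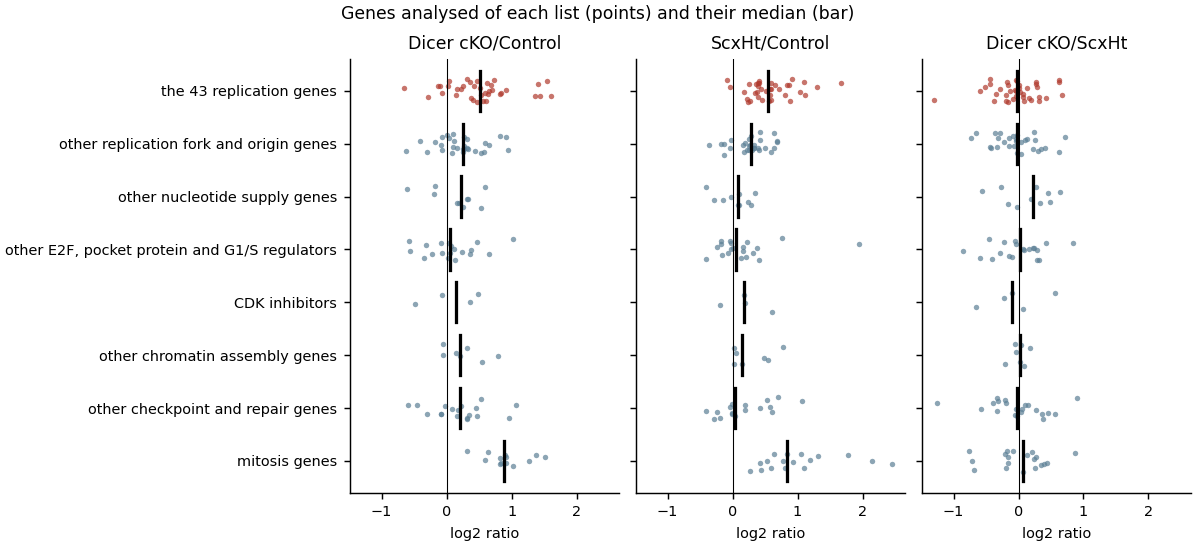
Log2 ratio (x axis) of each gene above the minimum count (points, spread vertically for legibility) and the list median (black bar) for the 43 replication genes (red) and 7 other lists (blue), in each of the 3 comparisons. Mitosis genes have the highest medians against Control, 0.89 and 0.84, followed by the replication genes, 0.52 and 0.54, and in Dicer cKO/ScxHt the replication genes have a median of -0.03.

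RNA of cell type markers differed between the libraries, by lists of 10 marker genes each, given as summed normalized counts. Cell numbers and RNA per cell cannot be told apart in these values. The tendon fibroblast list includes Scx, of which ScxHt and Dicer cKO lost an allele. Tendon fibroblast markers summed to 2232502, 1831654 and 1249998, and none of them was at 0. Their sum is carried by Col1a1 and Col1a2, and by median log2 ratio they stood at -0.88 for Dicer cKO/Control and 0.25 for ScxHt/Control, with 7 of 10 ratios above 1 in the latter. Skeletal muscle markers summed to 848887, 443205 and 1412239, carried mostly by Ttn. For ScxHt/Control they went both ways, with 4 intervals above 1 and 6 below and a median of -0.21. All 10 had intervals above 1 for Dicer cKO/Control, with a median of 0.93. Satellite cell and myoblast markers summed to 10751, 6152 and 17610, with medians of 0.78 and -0.83 from the 5 above the minimum.

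Macrophage markers summed to 4159, 7189 and 3198, with medians of -0.41 for Dicer cKO/Control and 0.78 for ScxHt/Control, and endothelial markers to 12320, 8318 and 13636, with 0.09 and -0.51. Erythroid markers, of which Ahsp was not found, summed to 3069, 2901 and 7221. Schwann cell markers summed to 3865, 4630 and 11424, with medians of 1.92 and -0.13, and 2 of 6 were above 1 in ScxHt/Control. Summed normalized counts of the replication genes were 6009, 8298 and 8254. Cartilage markers summed to 46006, 51757 and 28159, and lymphocyte markers to 323, 263 and 277, with Cd3d at 0 in all libraries. Granulocyte and marrow precursor markers summed to 1, 16 and 0, and 7 of these 10 (Camp, Ctsg, Elane, Ly6g, Mpo, Ngp, S100a9) were at 0 throughout. Mitochondrial genes held 3.45%, 2.12% and 4.43% of the counts. The part of these differences in the ratios of the replication genes was not tested.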

How the data were processed

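RNA-seq was read from 3 libraries, 1 per genotype, and small RNA-seq was not used here. Per the Supplementary Methods, the authors trimmed adaptors, mapped paired-end reads to GRCm38/mm10 with TopHat and Bowtie2 and made raw counts with HTSeq, which they deposited without normalization. Versions, annotation release and strand setting are not given in the sources used here. The deposited RPKM values were inferred to be RPKM from their values, and served only for levels between genes. Of 54189 lines, 431 exact repeats were dropped. Kif11, on 2 near-identical lines, was counted once in its list. Size factors came from DESeq2 1.42.0 in R 4.3.3, and ratios and intervals from Python 3.11.15, scipy 1.17.1, pandas 2.3.3 and numpy 2.4.6 (figures, matplotlib 3.10.9). Totals of 14959399 to 16244232 reads leave wide intervals for genes near 50 reads. Positions came from GENCODE vM21 on GRCm38 by symbol and promoters from RefSeq. The procedure was tested on simulated counts that held only the error of counting. They had no spread between mice and no repeated reads, so that test does not cover either. Alternatives were edgeR 4.0.16 TMM, total counts and other scalings, minimum counts, thresholds and a pseudocount. The members and lists were chosen with earlier results of these data known. Named genes were all 43 members, the highest and lowest ratio of each other list, Mki67, Top2a, Dicer1 and Scx. Others were named after their values were seen. A value that this rule covers is not reported here.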

Additional observations from a re-analysis of the deposited data

How the results depend on the processing

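No paired analysis was possible because each genotype had 1 library, and for the same reason no library could be left out. Control stayed lowest for 38 of 43 genes under edgeR TMM, total counts, total counts without features above 1%, and DESeq2 size factors without muscle, mitochondrial and member genes. Under those and DESeq2 size factors over all 3 libraries, the counts of higher and lower genes and the medians kept within 1.5 times or the members' median interval, as did a pseudocount of 1. Total counts moved the median of all genes for ScxHt/Control by 0.11 (log2), with the members' median at 0.67, and took the share of higher among all called genes from 39.3% to 58.5%, and from 48.1% to 60.4% for Dicer cKO/Control. For Dicer cKO/Control the 8 higher genes became 14 with a minimum baseMean of 10 or none, 1 with 200, 5 at a ratio of 2, 16 at 1.5 (with 1 lower), 5 with the whole interval past the threshold, and 2 without the 13 genes that overlap another gene, an alternative chosen after seeing the data. For ScxHt/Control the 10 became 0 with a minimum of 200, 5 at a ratio of 2, 1 with the whole interval past the threshold and 5 without overlapping genes. For Dicer cKO/ScxHt, 3 were higher with a minimum of 10 or none and at 1.5, and 0 and 2 were lower with a minimum of 200 and at 1.5. A minimum count changes which genes are counted. The shares of all genes called at these other minimum counts and thresholds were not computed, so these counts cannot be set against a general rate. Ratios of single members stayed inside their intervals in all 774 recomputations, and list medians in 166 of 168. The exceptions among list medians were CDK inhibitors in Dicer cKO/Control, at 0.41 and 0.47 with a minimum of 10 and none. A change of scaling multiplies all ratios of a comparison by a common factor, small beside most counting intervals. For single members the outcome was thus nearly fixed beforehand.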

Other observations

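Of the 36 other fork and origin genes, 6 had too few reads for the Dicer cKO/Control comparison. Gmnn, the inhibitor of Cdt1, had 14 reads in Control, 11 in ScxHt and 1 in Dicer cKO, which put Dicer cKO at 0.0741 (0.00175 to 0.487) of Control on counting error alone. Dscc1, a subunit of the alternative clamp loader that serves sister chromatid cohesion, had 31, 40 and 14 reads, at 0.469 (0.230 to 0.908) of Control. Rpa3, the small subunit of the single-stranded DNA coat, went the other way with 26, 30 and 53 reads, at 2.12 (1.30 to 3.53). The intervals of Gins3 at 1.65 (0.999 to 2.78), Chtf18 at 1.54 (0.956 to 2.51) and Mcm8 at 1.14 (0.730 to 1.78) held 1. These genes were named after their values were seen.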
